A study of Mus musculus with 6 samples.

Results

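The circadian clock of intestinal mucosa was examined through 10 genes, the core clock and clock output genes Arntl, Clock, Npas2, Per1, Per2, Per3, Nr1d1, Nr1d2, Dbp and Ciart, taken by name from the 38561 Ensembl genes counted in each pool. All 10 were among the 16425 genes that passed the expression filter. They were read in 2 groups by the time of day at which their transcripts peak in mouse tissues, the morning-phase genes Arntl, Clock and Npas2 and the other 7, called evening-phase genes here, whose peaks fall later in the day. RNA came from scraped small intestinal mucosa of C57BL/6J mice of both sexes, aged 8 to 12 weeks per the labels, as 3 pools labelled Rbm47-IKO and 3 labelled wt. Each pool held 3 mice per the labels, whereas the study's methods give a range that reaches above this number. Rbm47-IKO mice lack the RNA-binding protein RBM47 in the gut epithelium through a constitutive Cre transgene under the Villin promoter, so that cells outside the epithelium keep the gene. The study's methods name floxed mice (Rbm47 fl/fl) as controls throughout, whereas the labels say wt. Mice lived on alternating light and dark with free access to chow, and the sources used here give no hour of tissue collection.

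The clock is a loop of transcription. The proteins ARNTL (BMAL1) and CLOCK, or its relative NPAS2, bind E-boxes and activate Per, Cry, Nr1d, Dbp and Ciart genes, and the PER, CRY and CIART (CHRONO) proteins then repress that activation. NR1D1 and NR1D2 (REV-ERB alpha and beta) repress Arntl through ROR elements, and DBP activates genes with D-boxes, Per3 among them. When the evening-phase transcripts are high, Arntl is therefore near its low point. In the intestine the clock is known to time nutrient uptake, cell renewal and mucosal defense, and feeding is a strong signal for it.

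RefSeq promoter windows of GRCm38.p6, reaching from 250 bases before an annotated start to 50 bases after it, were listed for 9 of the 10 genes, 13 windows in all, with Per2 not among them. They were searched on both strands for the E-box CACGTG, the D-boxes TTATGTAA and TTACGTAA and the ROR element core TAGGTCA. The 4 windows with a match to any of these motifs are shown, and the capitals mark the matches. They are the windows of Ciart (chr3:95882179-95882478, minus strand), Per1 (chr11:69098699-69098998, plus strand), Per3 (chr4:151044616-151044915, minus strand) and Arntl (chr7:113207261-113207560, plus strand).
Ciart: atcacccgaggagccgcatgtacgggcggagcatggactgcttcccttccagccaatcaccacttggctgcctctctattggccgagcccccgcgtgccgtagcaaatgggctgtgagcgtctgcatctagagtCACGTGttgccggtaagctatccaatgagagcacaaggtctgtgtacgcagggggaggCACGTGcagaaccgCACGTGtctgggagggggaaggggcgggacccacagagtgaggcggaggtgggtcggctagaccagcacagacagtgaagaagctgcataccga
Per1: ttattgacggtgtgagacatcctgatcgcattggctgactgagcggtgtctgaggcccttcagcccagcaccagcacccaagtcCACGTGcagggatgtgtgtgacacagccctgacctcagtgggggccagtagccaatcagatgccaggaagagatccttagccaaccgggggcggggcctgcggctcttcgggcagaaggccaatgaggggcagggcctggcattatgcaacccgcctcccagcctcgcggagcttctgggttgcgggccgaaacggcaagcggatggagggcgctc
Per3: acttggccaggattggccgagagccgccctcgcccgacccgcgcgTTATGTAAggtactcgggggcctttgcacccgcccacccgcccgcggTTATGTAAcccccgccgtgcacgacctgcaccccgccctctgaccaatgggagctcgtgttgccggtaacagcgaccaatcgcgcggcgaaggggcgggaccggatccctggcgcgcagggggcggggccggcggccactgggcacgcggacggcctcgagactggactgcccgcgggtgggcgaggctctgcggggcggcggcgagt
Arntl: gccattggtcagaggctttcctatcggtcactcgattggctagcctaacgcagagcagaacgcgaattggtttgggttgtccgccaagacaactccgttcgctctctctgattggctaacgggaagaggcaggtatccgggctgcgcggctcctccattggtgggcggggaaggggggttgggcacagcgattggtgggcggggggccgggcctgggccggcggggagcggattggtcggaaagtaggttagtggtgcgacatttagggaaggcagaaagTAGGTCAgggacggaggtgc

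The Ciart window held 3 E-boxes, which began 116, 58 and 44 bases before the start. Of all 32851 windows of this length, 7.15% held at least 1 E-box and 0.088% held 3 or more. The Per1 window held 1 E-box, 166 bases before the start. Per3 had 2 copies of the D-box TTATGTAA, 205 and 158 bases before its start, whereas 0.938% of all windows had at least 1 copy and 0.021% at least 2. The Arntl window had 1 ROR element core, which began 30 bases past its start, and 2.61% of all windows had one. No matches overlapped, TTACGTAA was in none of the genes' windows and in 0.119% of all windows, and the other 9 windows of the genes held none of these letters. Those were the only windows of Npas2, Nr1d1, Nr1d2 and Dbp, the 3 of Clock, and 1 each of Arntl and Per1. Nr1d1, Nr1d2 and Dbp, named above as E-box targets, thus had no match in their windows. These matches are a description of the sequence.

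**Figure D1:**
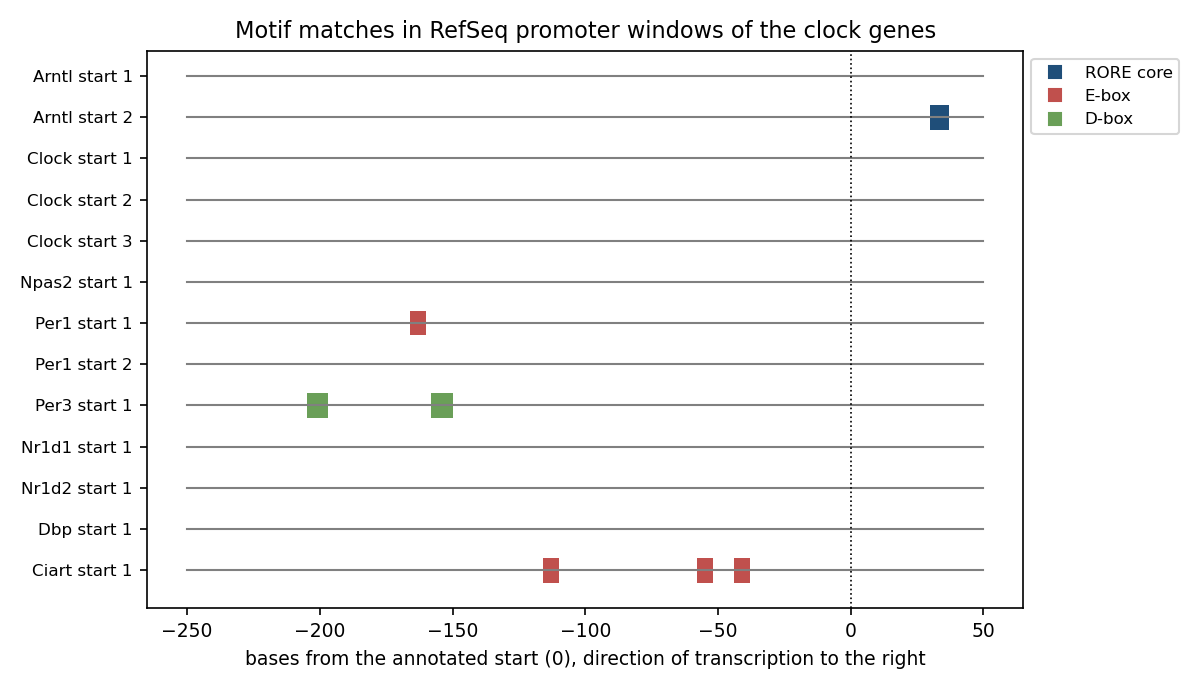
Matches to the E-box, D-box and ROR element core in the 13 RefSeq promoter windows of 9 clock genes, plotted by distance in bases from the annotated start (0), with transcription to the right. Each grey line is 1 window, and each block is a match drawn to scale. Ciart has 3 E-boxes within 116 bases of its start, and the other 3 windows with matches have 1 or 2.

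The pools held 31560320 to 38951830 counts. Rbm47 (ENSMUSG00000070780, chromosome 5, 66016549 to 66173117) was at 602.7 to 624.6 CPM (counts relative to library size, scaled by the TMM method) in the pools labelled Rbm47-IKO and at 449.9 to 472.1 in wt. Its log2 fold change was 0.42 (SE 0.10, edgeR adjusted p = 0.0751). The targeted gene was thus not lower, which goes against the labels. The hormone genes Cck, Gip and Ghrl, which the study also measured by PCR, were lower as labelled without overlap of pools (values below). Whether the labels were exchanged was not tested. The counts cover all of its exons, and the part of the gene that was removed is not given in the sources used here. Every direction below is that of the pools as labelled. Enterocyte genes were present in all pools, with 8 markers summing to 43513 to 47006 CPM in pools labelled Rbm47-IKO and 49343 to 56146 in wt. Apob alone was at 9864 to 10841 against 14903 to 22119 CPM, while 4 of the 8 had log2 fold changes above 0, the median was -0.044 and 0 were called by edgeR. Of the 8, 3 had an unadjusted edgeR p under 0.05, with Fabp2 above wt and Apob and Sis below it, each without overlap. The sum of 6 smooth muscle markers ranged from 360.9 to 3302 in the first group and from 90.7 to 2803 in the second, and was high in pool 3 labelled Rbm47-IKO and in wt pool 2. The sum of 4 Y-linked genes ranged from 53.0 to 143.7 against 87.9 to 220.3, so that the sexes were mixed unequally. The sum of 7 enteroendocrine markers ranged from 117.5 to 128.7 against 156.1 to 200.9, with 7 of 7 below 0 in log2 fold change and a median of -0.602. Of these, 1 was called (Ghrl, -1.44), where 2.7% of all genes tested were called. An unadjusted edgeR p under 0.05 was found for 4 of 7, against 16.8% of all genes tested. Cck (-1.24), Gip (-0.76) and Ghrl, 3 of 7, had every pool labelled Rbm47-IKO below every wt pool, against 11.6% of all genes tested. The sum of 8 B and plasma cell markers ranged from 257.2 to 328.1 against 307.4 to 341.6, most of it from Xbp1, which epithelium also expresses. Their log2 fold changes were below 0 for 8 of 8, with a median of -0.595 and 0 called by edgeR, and 0 of 8 had an unadjusted p under 0.05. None of these markers was at 0 counts in any pool, and their part in the results below was not tested beyond the covariate fits given beside them. In such bulk RNA, fewer cells of a type and less RNA per cell cannot be told apart.

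Ciart rose in the mucosa labelled Rbm47-IKO, and it was the only 1 of the 10 clock genes that passed the test. The other 6 evening-phase genes had positive log2 fold changes from 0.06 to 0.63, and the 3 morning-phase genes had negative ones from -0.29 to -0.09, without passing. The call was an adjusted p of 0.05 or less in the quasi-likelihood test of edgeR over all 16425 genes. By that rule 443 genes, or 2.7% of those tested, were called, 1.45% higher and 1.25% lower. Of the evening-phase genes 1 of 7 was called, higher, and 4 of 7 had an unadjusted p under 0.05, which 16.8% of all genes tested also had. Of the morning-phase genes 0 of 3 were called and 0 of 3 had an unadjusted p under 0.05. The median log2 fold change was 0.36 for the evening-phase genes, -0.22 for the morning-phase genes and -0.006 for all genes tested. Since these genes were chosen with earlier results known, the counts are a description.

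**Figure D2:**
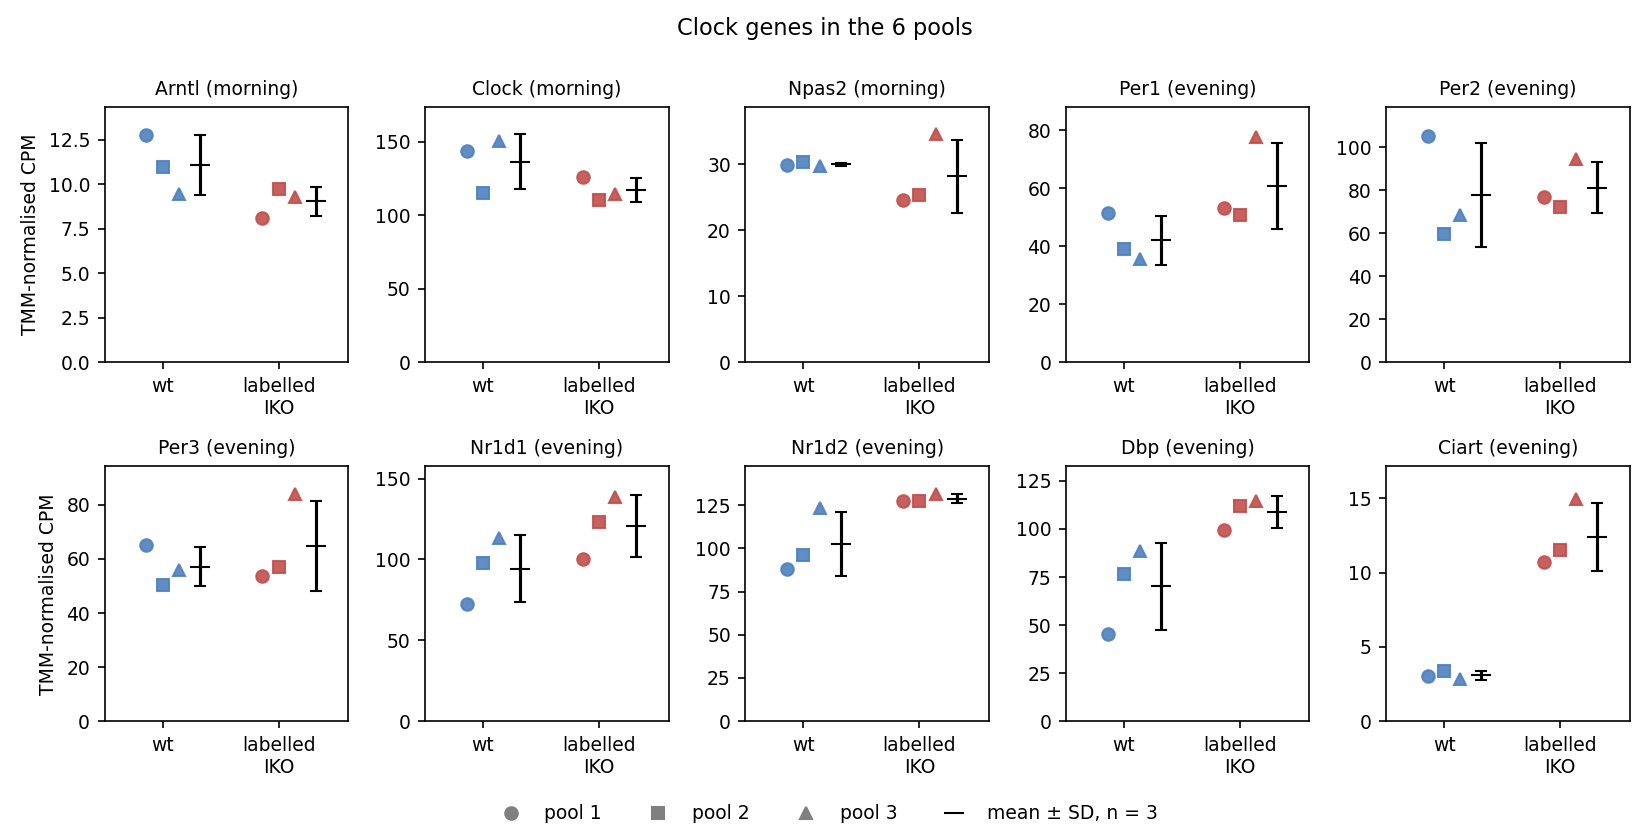
TMM-normalised CPM of the 10 clock genes, 1 panel per gene with its own linear axis from 0, for 3 wt pools (blue) and 3 pools labelled Rbm47-IKO (red); symbols give the pool number and black bars the mean ± SD (n = 3). Ciart, Dbp and Nr1d2 have every labelled Rbm47-IKO pool above every wt pool, and the other 7 genes overlap.

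Ciart (ENSMUSG00000038550, chromosome 3, 95878503 to 95882251) encodes a repressor that binds the ARNTL and CLOCK pair. It had 370, 437 and 489 counts in pools 1, 2 and 3 labelled Rbm47-IKO and 103, 129 and 103 in wt pools 1, 2 and 3. As normalized values these were 10.7, 11.5 and 15.0 CPM against 3.03, 3.40 and 2.83 CPM. The lowest pool labelled Rbm47-IKO was thus far above the highest wt pool, and the wt pools lay close together. The means were 12.4 ± 2.27 CPM (SD, n = 3) and 3.08 ± 0.29 CPM (SD, n = 3). The log2 fold change was 2.01 (SE 0.19, edgeR adjusted p = 0.00872). Among the 16425 genes it ranked 18 by p, and 42 from the most positive by signed log2 fold change in the direction as labelled. With 1 pool left out in turn it stayed between 1.85 and 2.10, and the edgeR adjusted p was 0.0652 without pool 2 labelled Rbm47-IKO and 0.0504 without wt pool 3. It was called in the other 4 of those fits, and in all 11 of the other alternatives.

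Of the evening-phase genes, Dbp came next. It encodes the D-box activator, a direct output of the clock. Dbp (ENSMUSG00000059824, chromosome 7, 45705088 to 45710155) was at 99.2, 112.0 and 114.7 CPM in pools 1, 2 and 3 labelled Rbm47-IKO and at 45.1, 76.5 and 88.6 CPM in wt. The groups did not overlap, but the wt pools spread widely, with pool 1 far below the other two. The means were 108.6 ± 8.27 CPM (SD, n = 3) and 70.1 ± 22.4 CPM (SD, n = 3). The log2 fold change was 0.63 (SE 0.23, edgeR adjusted p = 0.216), and it was 0.40 without wt pool 1. At its 3′ end Dbp shares 491 exon bases, 16.7% of its exon length, with Sphk2 on the opposite strand, and the use of strand in the counting is not given in the sources used here. Sphk2 itself was at 106.1 to 117.4 CPM in pools labelled Rbm47-IKO and at 100.3 to 117.1 in wt, and the log2 fold change was 0.04 (edgeR adjusted p = 0.925).

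The REV-ERB genes repress Arntl. Nr1d2 (ENSMUSG00000021775, chromosome 14, 18204054 to 18239127) was at 127.4, 127.3 and 131.7 CPM in pools 1, 2 and 3 labelled Rbm47-IKO and at 87.8, 96.1 and 123.6 CPM in wt. Its groups did not overlap, though wt pool 3 came close to the pools labelled Rbm47-IKO, and the log2 fold change was 0.33 (SE 0.14, edgeR adjusted p = 0.291). Nr1d1 (ENSMUSG00000020889, chromosome 11, 98767932 to 98775333) was at 100.5, 123.1 and 138.5 CPM against 72.3, 97.6 and 113.1 CPM. Its groups overlapped, with wt pool 3 above pool 1 labelled Rbm47-IKO. Its log2 fold change was 0.36 (SE 0.19, edgeR adjusted p = 0.406). Nr1d1 shares 263 exon bases, 8.55% of its exon length, with Thra on the opposite strand, whose log2 fold change was 0.05 (edgeR adjusted p = 0.924).

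In the count of groups without overlap, 3 of the 7 evening-phase genes (Ciart, Dbp and Nr1d2) had every pool labelled Rbm47-IKO above every wt pool, and 0 of the 10 genes had them all below. Of all genes tested, 11.7% were above without overlap and 11.6% below. With 3 pools against 3, an exact permutation test of a single gene cannot give a p under 0.1.

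The Period genes encode the repressors that close the loop, and none of the 3 was called. Per1 (ENSMUSG00000020893, chromosome 11, 69095217 to 69109960) was at 53.3, 50.9 and 77.7 CPM in pools 1, 2 and 3 labelled Rbm47-IKO and at 51.6, 39 and 35.5 CPM in wt. The groups met at wt pool 1, and pool 3 labelled Rbm47-IKO was the highest. Its log2 fold change was 0.53 (SE 0.20, edgeR adjusted p = 0.248), and 0.31 without pool 3 labelled Rbm47-IKO. Per3 (ENSMUSG00000028957, chromosome 4, 151003652 to 151044665) was at 53.7, 57.0 and 83.9 CPM against 65.1, 50.5 and 56.1 CPM. Again pool 3 labelled Rbm47-IKO stood above the rest, and without it the log2 fold change of 0.18 (SE 0.19, edgeR adjusted p = 0.73) became -0.0462. Per2 (ENSMUSG00000055866, chromosome 1, 91415984 to 91459330) was at 76.8, 72.3 and 94.5 CPM against 105.2, 59.6 and 68.4 CPM. The highest pool for Per2 was wt pool 1, and the log2 fold change was 0.06 (SE 0.22, edgeR adjusted p = 0.935), with a sign that turned in 4 of the 17 alternatives.

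The morning-phase genes encode the activators. Arntl (ENSMUSG00000055116, chromosome 7, 113207465 to 113314122) was at 8.12, 9.72 and 9.28 CPM in pools 1, 2 and 3 labelled Rbm47-IKO and at 12.8, 10.96 and 9.44 CPM in wt. The wt pools reached higher, but wt pool 3 lay below pool 2 labelled Rbm47-IKO, and the log2 fold change was -0.29 (SE 0.17, edgeR adjusted p = 0.451) and -0.17 without wt pool 1. Clock (ENSMUSG00000029238, chromosome 5, 76212177 to 76304548) was at 126.3, 110.1 and 114.8 CPM against 143.7, 115.0 and 150.6 CPM, and the log2 fold change was -0.22 (SE 0.13, edgeR adjusted p = 0.462). The 2 groups overlapped through wt pool 2, and the log2 fold change was -0.14 without wt pool 3 and -0.0533 with an offset for GC content. Npas2 (ENSMUSG00000026077, chromosome 1, 39193731 to 39363234) was at 24.6, 25.4 and 34.5 CPM against 29.9, 30.3 and 29.8 CPM. For Npas2 the wt pools were nearly equal and lay within the range of the pools labelled Rbm47-IKO (log2 fold change -0.09, SE 0.15, edgeR adjusted p = 0.848). Its value was -0.26 without pool 3 labelled Rbm47-IKO, -0.0033 without pool 1 and -0.0212 without pool 2 of that label, so its direction is not resolved.

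Per kilobase of exon, which allows levels to be compared between genes, the order in wt was Nr1d1, Dbp, Nr1d2, Clock, Per2, Per1, Npas2, Per3, Arntl and Ciart. The level ran from 30.7 ± 6.69 CPM per kb (SD, n = 3) for Nr1d1 down to 1.36 ± 0.128 CPM per kb (SD, n = 3) for Ciart. In that order the pools of each gene overlapped those of the next, except between Per2 and Per1, between Per3 and Arntl, and between Arntl and Ciart. In the pools labelled Rbm47-IKO, Nr1d1 was again the highest, at 39.2 ± 6.22 CPM per kb (SD, n = 3). Arntl was the lowest there, at 3.11 ± 0.285 CPM per kb (SD, n = 3), and Ciart stood above it at 5.48 ± 1.004 CPM per kb (SD, n = 3) without overlap of pools. The levels of Ciart and Arntl per kilobase thus stood in opposite order in the pools of the 2 labels.

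The evening and morning genes were also set against each other within each pool. The mean log2 CPM of the 7 evening-phase genes minus that of the 3 morning-phase genes was 1.04, 1.08 and 1.25 in pools 1, 2 and 3 labelled Rbm47-IKO. In wt pools 1, 2 and 3 it was 0.20, 0.36 and 0.42. With Ciart left out of the mean, the differences were 1.46, 1.49 and 1.65 against 0.84, 0.97 and 1.09. Each pool labelled Rbm47-IKO was thus above each wt pool on this scale with and without Ciart, as a description of chosen genes with no test. The ratio of Dbp CPM to Arntl CPM was 12.2, 11.5 and 12.4 in pools labelled Rbm47-IKO and 3.53, 6.98 and 9.39 in wt. This ratio varied little among the first and rose nearly to their level in wt pool 3, and it was lowest in wt pool 1.

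**Figure D3:**
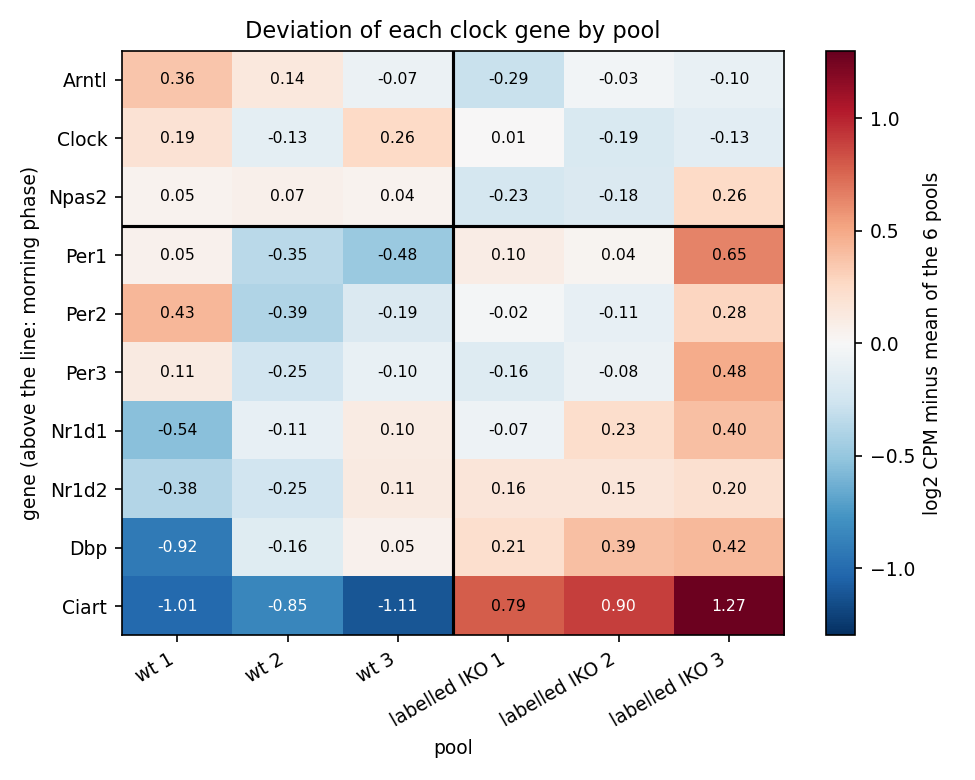
Log2 CPM of each clock gene in each pool minus its mean over the 6 pools; rows are genes with the morning-phase genes above the horizontal line, columns are pools with wt left of the vertical line, red is above and blue below the mean. Ciart runs from -1.11 to -0.85 in wt and from 0.79 to 1.27 in the labelled Rbm47-IKO pools, and wt pool 1 is low for Dbp (-0.92) and high for Per2 (0.43).

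Within wt, the evening-phase genes did not vary as 1 block. Pool 1 had the lowest Dbp, Nr1d1 and Nr1d2 of the 6 pools and the highest Arntl, and at the same time the highest Per2 of the 6 pools and the highest Per1 and Per3 of the wt pools. Period genes are known to respond directly to glucocorticoid hormone through the glucocorticoid receptor. A list of 6 other genes known to respond to that hormone was also read by pool. These genes were named after their values were seen, so their values are a description. Fkbp5, which encodes a co-chaperone of the receptor, was at 247.2 CPM in wt pool 1 and at 31.9 to 54.3 CPM in the other 5 pools. Zbtb16 was at 25.5 CPM in wt pool 1 and at 1.39 to 8.94 CPM elsewhere, with pool 3 labelled Rbm47-IKO at the upper end. Sgk1 was at 935.7 CPM in wt pool 1 against 334.2 to 811.5 CPM, and Tsc22d3 at 154.5 CPM against 64.2 to 91.5 CPM. Klf9 and Dusp1 did not follow, and wt pool 1 was the lowest pool for both, at 35.9 and 10.2 CPM. Between the labels 0 of these 6 genes were called by edgeR and 0 had an unadjusted p under 0.05. The part of such a response in the Period values was not tested. Without wt pool 1 the log2 fold change of Per1 was 0.70, that of Per2 was 0.34 and that of Per3 was 0.28. Those of Dbp, Nr1d1 and Nr1d2 were then 0.40, 0.20 and 0.23, and none of these 6 genes was called in that fit.

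**Figure D4:**
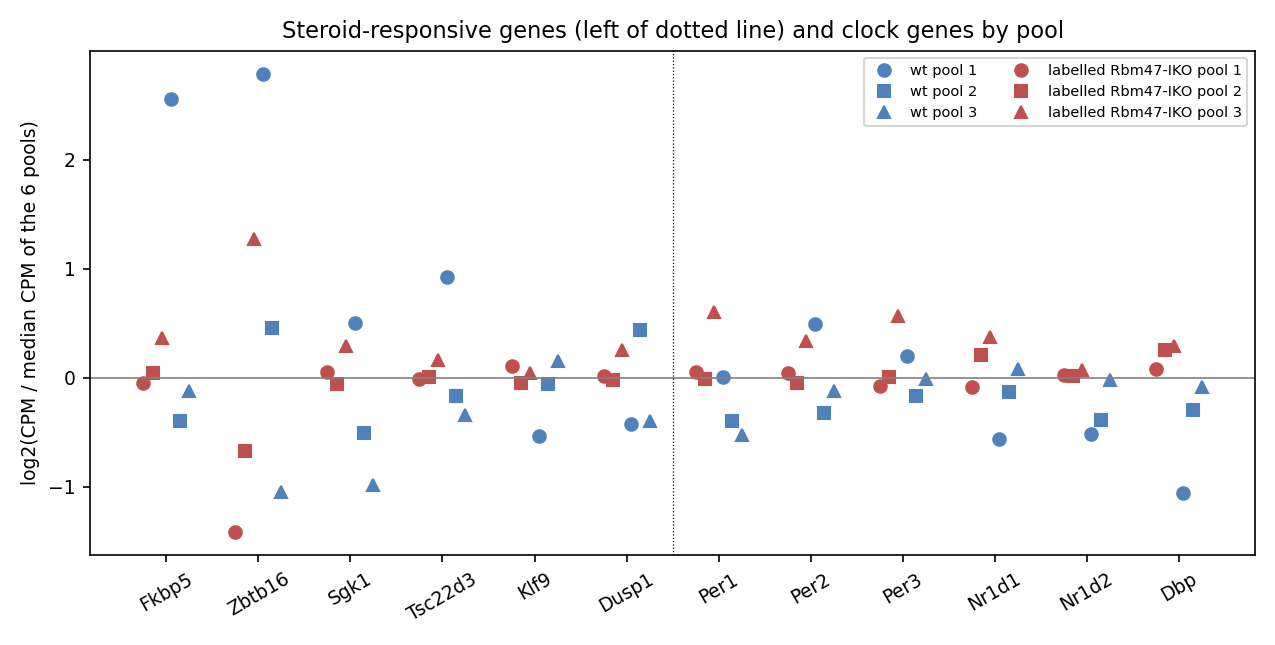
The 6 listed glucocorticoid-responsive genes (left of the dotted line) and 6 evening-phase clock genes, as log2 of CPM over the median CPM of the 6 pools; blue is wt, red is labelled Rbm47-IKO, and the symbol gives the pool. Blue circles (wt pool 1) are highest for Fkbp5, Zbtb16, Sgk1, Tsc22d3 and Per2 and lowest for Klf9, Dusp1, Nr1d1, Nr1d2 and Dbp, although wt pool 3 is close to it for Dusp1.

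The rest of the clock was read from 29 further genes in 3 lists, of which 28, all but Rorb, passed the expression filter. Of these 28, 2 were called, both higher in the pools labelled Rbm47-IKO (Hlf and Usp2), where 2.7% of all genes tested were called and 1.45% were called higher. An unadjusted p under 0.05 was found for 4 of the 28, near the 16.8% of all genes tested. Without overlap of pools, 4 of the 28 were above wt and 1 was below. Of all genes tested, 11.7% were above and 11.6% below in this way. Their median log2 fold change was 0.04, with 15 of the 28 above 0.

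Among the factors that share sites with the 10 genes, Hlf, a D-box activator of the same family as Dbp, rose. It was at 17.5, 22.5 and 30.7 CPM in pools 1, 2 and 3 labelled Rbm47-IKO and at 12.3, 9.22 and 9.93 CPM in wt, so the groups did not overlap. Its log2 fold change was 1.17 (SE 0.22, edgeR adjusted p = 0.0409), and no call remained after removal of any single pool (edgeR adjusted p from 0.0591 to 0.192). With the pool number as a block Hlf was at 1.14 and was not called (edgeR adjusted p = 0.0955). Tef, the remaining activator of the family, had 0.20 (edgeR adjusted p = 0.478), and Nfil3, the repressor at the same sites, had -0.27 (edgeR adjusted p = 0.666). The log2 fold changes of the repressors Cry1 and Cry2 were -0.05 and 0.31 (edgeR adjusted p = 0.907 and 0.597). Rora, which activates through ROR elements, had 0.33 (edgeR adjusted p = 0.797). The E-box repressors Bhlhe40 and Bhlhe41 had -0.08 and 0.58 (edgeR adjusted p = 0.813 and 0.541), the latter from at most 1.98 CPM, and Arntl2 had -0.16 (edgeR adjusted p = 0.935).

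The 9 genes of kinases, ligases and partners that modify or bind clock proteins had log2 fold changes from -0.25 to 0.36, and 0 of 9 were called by edgeR. Of these 9, 1 had an unadjusted p under 0.05, where 16.8% of all genes tested did. Of the 9 other clock-driven transcripts, 2 had an unadjusted p under 0.05, and 1 of these, Usp2, was called. With so few genes, neither list can be told apart from the 16.8% of all genes. Usp2 encodes a ubiquitin protease with a strong daily rhythm in many tissues. It was at 95.3, 103.9 and 106.0 CPM in pools 1, 2 and 3 labelled Rbm47-IKO and at 46.8, 52.8 and 56.8 CPM in wt. The groups were well apart, with little spread in either, and the log2 fold change was 0.96 (SE 0.11, edgeR adjusted p = 0.00996). Removal of single pools gave 0.89 to 1.04, with a call in 3 of the 6 cases (edgeR adjusted p from 0.0221 to 0.0834). Wee1, a kinase that restrains entry into mitosis, was at 0.38 on the log2 scale (edgeR adjusted p = 0.236), and its groups did not overlap. Noct, which encodes nocturnin, had 0.52 (edgeR adjusted p = 0.42).

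**Figure D5:**
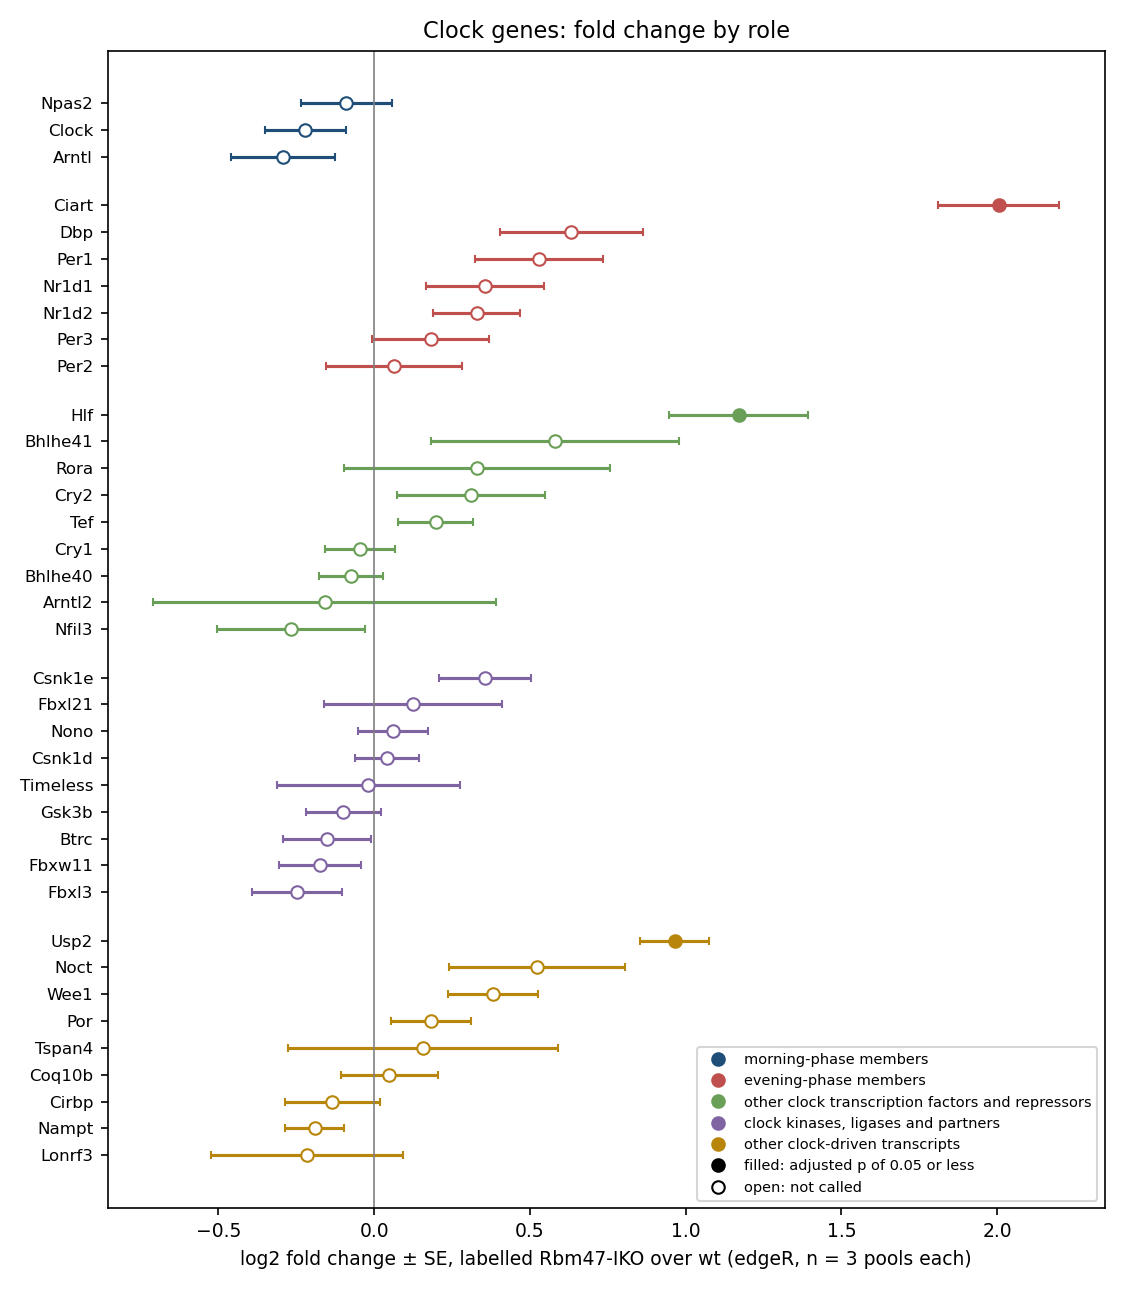
Log2 fold change (labelled Rbm47-IKO over wt, edgeR) ± SE for the 10 clock genes and other tested clock genes, grouped by role; n = 3 pools per label, filled points have an adjusted p of 0.05 or less. The 3 filled points are Ciart (2.01), Hlf (1.17) and Usp2 (0.96), and the morning-phase genes lie left of 0.

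Among the 16221 tested genes of known GC content, transcripts rich in GC tended to have higher log2 fold changes (rank correlation rho = 0.271 by Spearman's method, over genes that are not independent of each other). The GC content of the longest transcript was 40.9% for Clock, 41.8% for Nr1d2, 48.2% to 54.3% for Arntl, Ciart, Npas2, Per3 and Per2, 56.8% for Nr1d1, 59.4% for Per1 and 61.6% for Dbp. With an offset for GC content, the log2 fold change of Ciart was 1.96 (edgeR adjusted p = 0.00945), that of Dbp was 0.46, that of Per1 was 0.37 and that of Nr1d1 was 0.24. That of Nr1d2, a gene of low GC content, was 0.47. When the level of Y-linked genes was added as a covariate, Ciart was at 2.0 (edgeR adjusted p = 0.0402), and with the smooth muscle genes as a covariate it was at 1.92 (edgeR adjusted p = 0.00112). Hlf and Usp2 were not called with the Y-linked covariate, at 1.27 and 0.95 (edgeR adjusted p = 0.121 and 0.0537).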

How the data were processed

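Mucosal RNA was measured as 3 pools per label, and groups were taken from the sample titles. For each pool the authors deposited unnormalized read counts by Ensembl gene. The submitters' processing notes name STAR 2.5.1a, featureCounts 1.4.6-p5 and GRCm38. The deposited CPM and RPKM columns follow from the counts and the gene length and were not used. Gene symbols came from GENCODE M21, which held 36639 of the 38561 identifiers and all genes named here. Gene positions are those of the tables.

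Counts past filterByExpr (16425 genes) were TMM-scaled and compared by edgeR 4.0.16 (quasi-likelihood test, R 4.3.3), with Benjamini-Hochberg adjustment over all genes and a threshold of 0.05. The SE was the log2 fold change over the root of its F statistic. Log2 CPM used a prior count of 2. Alternatives used DESeq2 1.42.0, limma 3.58.1 (voom), other scalings and filters, a robust fit, covariates, a GC offset (lowess span 0.3), a block and the removal of each pool. The genes and lists were chosen with earlier results of these data known. Named genes were Rbm47, the 10 clock genes, other clock genes that were called, the Cry, Ror, Bhlhe4, Nfil3, Tef and Hlf genes, and the 5 genes at each end of a likeness ranking. A gene that this rule names is not reported here. Antisense neighbors, Arntl2, Wee1, Noct, Nampt, Csnk1e and the glucocorticoid genes were named after their values were seen. The test was checked on 3 simulated data sets of this comparison with 200 changed genes (16126 genes tested on average). It called 39.9% of genes changed by a log2 of 1 and 70.6% of those changed by a log2 of 2, and 7.3% of its calls were unchanged genes. At 31560320 to 38951830 counts per pool, Ciart rested on at least 103 counts and Arntl on at least 281. Pools differed from each other beyond counting noise. Each pool holds 3 mice per the labels, and p-values measure the spread between pools.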

Additional observations from a re-analysis of the deposited data

How the results depend on the processing

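Of the 12 genes followed through the 11 alternatives and the 6 fits with 1 pool left out (the 10 clock genes, Hlf and Usp2), all kept their sign except Per2 and Per3, with Npas2 between -0.2595 and -0.0033 when 1 pool was left out. Per2 was -0.0225 with the GC offset and ranged from -0.0937 to 0.34 with 1 pool left out, and Per3 ranged from -0.0462 to 0.30; the cause was not tested. With 1 pool left out, the clock genes called numbered 0 to 1, the evening-phase genes called 0 to 1 and the other clock genes called 0 to 1, against 1, 1 and 2 with all pools. All genes called numbered 443 with all pools, 1243 with DESeq2, 716 with the smooth muscle covariate, 270 with the GC offset, 58 with the Y-linked covariate and 0 to 431 with 1 pool left out. That 0 was without pool 2 labelled Rbm47-IKO, by edgeR, where 1729 genes had an unadjusted p under 0.05, and the count was 11 without wt pool 3, 32 without pool 1 labelled Rbm47-IKO and 119 without pool 3 labelled Rbm47-IKO. The other clock genes called numbered 0 with the Y-linked covariate, where both Hlf and Usp2 were lost. Deviations from the group means had correlations across genes of 0.408, -0.003 and -0.277 for pools with the same number. Pool 3 labelled Rbm47-IKO and wt pool 2, with different numbers, reached 0.479. These values cannot decide whether the pool numbers pair the pools. With the pool number as a block 100 genes were called, Ciart among them (log2 fold change 1.99, edgeR adjusted p = 0.0364), and 1 other clock gene, Usp2. The removal of a pool leaves fewer samples, which limits what the test can call, and genes near 1 CPM such as Arntl2 and Bhlhe41 are imprecise at this depth.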

Other observations

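Likeness to the evening-phase genes was ranked by Pearson's r over the 6 pools, between a gene's log2 CPM and the mean standardized log2 CPM of the 7 genes, as a description with no test. The most alike were Coro7 (0.991), Apbb2 (0.987), S100pbp (0.986), Kdm4b (0.986) and Klf7 (0.985), and the most opposite were Samd1 (-0.989), Gtpbp3 (-0.985), Mtx2 (-0.983), Pcna (-0.981) and Ogfod2 (-0.977). Pcna, which encodes the sliding clamp of DNA replication, was at 12.3, 13.2 and 9.86 CPM in pools 1, 2 and 3 labelled Rbm47-IKO and at 15.9, 17.4 and 15.4 CPM in wt, and the log2 fold change was -0.46 (edgeR adjusted p = 0.165). Klf7, a transcription factor, was at 20.5, 20.5 and 27.2 CPM against 14.1, 12.6 and 14.6 CPM, with 0.73 (edgeR adjusted p = 0.0536). None of these 10 genes was called. Among so many genes over 6 pools that fall into 2 labels, high values of r arise easily. The evening-phase genes themselves had r from 0.379 (Per2) to 0.896 (Ciart) with their own mean, and Arntl, Clock and Npas2 had -0.574, -0.465 and 0.172.

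Nampt encodes the rate-limiting enzyme of NAD salvage and is driven by the clock in several tissues. Of the 28 other clock genes tested, it was the only 1 with every pool labelled Rbm47-IKO below every wt pool. Of all genes tested, 11.6% were below without overlap. It was at 105.7, 99.5 and 95.4 CPM against 114.0, 110.5 and 118.8 CPM, with a log2 fold change of -0.19 (SE 0.095, edgeR adjusted p = 0.37), and so was not called. Csnk1e, a kinase that marks PER proteins for decay, was 1 of the 4 above without overlap, as were 11.7% of all genes tested. Its log2 fold change was 0.36 (edgeR adjusted p = 0.282).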
